A study of Mus musculus with 4 samples.

Results

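The 4 arrays of a study of plumbagin in B16F10 cells were compared by the number at the end of their names: the 2 arrays numbered 2 against the 2 arrays numbered 1, with treatment held constant. B16F10 is a melanoma line of C57BL/6 mouse origin that makes pigment. Plumbagin is a plant naphthoquinone. All 4 samples of the study were used: control 1 and control 2, given MilliQ water in place of the compound (0 µM), and plumbagin 1 and plumbagin 2, given 2 µM plumbagin, with a treatment time of 24 h. Every sample was thus the same cell line with no genetic change named, and each number held 1 control and 1 plumbagin sample. The labels say neither what the numbers stand for nor whether samples came from separate cultures. A day, a culture or a step of the array work thus cannot be told apart as the origin of a difference between numbers. No treatment had a second array of the same number. The spread behind a p-value or SE is thus how far the differences within the treatments disagree, drawn toward that of other genes. It covers these samples alone, and a true difference between treatments would count in it as spread. Of 45141 probe sets, 17097 named genes were compared, each by its brightest probe set.

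The genes are taken up by their roles in the state of a culture. Genes that act at the G1/S step and in copying DNA are driven by E2F factors and mark cells about to copy their genome, while a later set marks mitosis. Thioredoxin-interacting protein, encoded by Txnip, is an arrestin relative that restrains glucose uptake, and its gene is switched on by MondoA and ChREBP when sugar phosphates build up. The integrated stress response acts through ATF4 when amino acids or folding capacity run short, and NRF2 answers oxidants. SRF with its cofactor MRTF, and separately YAP, follow the state of the actin skeleton.

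The number of a sample went with a larger difference than its treatment. The difference of control 2 from control 1 had an SD over genes of 0.27 on the log2 scale, and that of plumbagin 2 from plumbagin 1 an SD of 0.26. Plumbagin 1 differed from control 1 with an SD of 0.23. Plumbagin 2 and control 2 were the closest pair, with an SD of 0.11 and a correlation over probe sets of 0.998, against 0.992 to 0.994 for the other 5 pairs. Both differences between numbers come from separate arrays, so they can be set against each other: over the 8637 genes above background their Pearson correlation was 0.62 and Spearman's was 0.61, and 67.2% of these genes had the same sign in both. These are descriptions across genes, which are not independent replicates. Over all 17097 genes the values were 0.54, 0.38 and 61.4%. Background was set at a log2 value of 5.05, below which 95% of 41 odorant receptor genes lay, genes taken as silent in these cells.

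**Figure D1:**
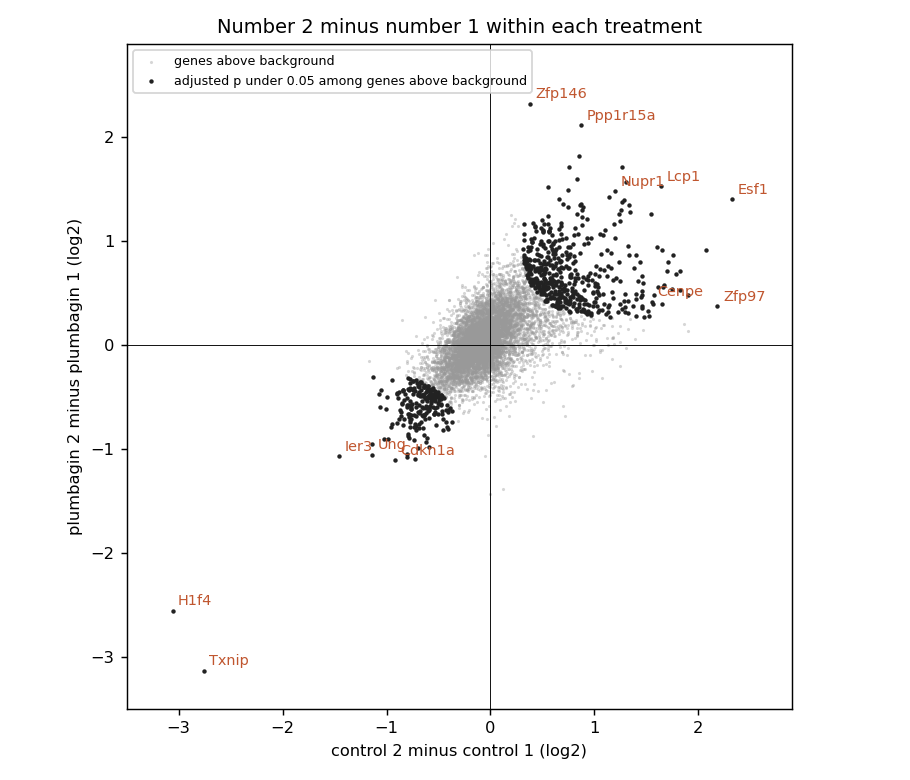
Each point is 1 of the 8637 genes above background, placed by the log2 difference of control 2 from control 1 (horizontal) and of plumbagin 2 from plumbagin 1 (vertical); black points had an adjusted p under 0.05 in the fit over genes above background. Txnip and H1f4 lie alone at the lower left, and the labelled genes Zfp97, Cenpe and Zfp146 lie near 1 axis, with a larger difference in 1 treatment than in the other.

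No gene passed in the comparison over all genes. The limma fit with treatment and number as terms called 0 of 17097 genes at an adjusted p of 0.05 (0%), with a smallest adjusted p of 0.167, while 2698 genes (15.8%) had an unadjusted p under 0.05. On average 40.4% of the genes were higher in number 2 and 59.6% lower, with a median difference of -0.03. When the same fit was limited to the 8637 genes above background, 693 were called (8.02%), 480 of them higher in number 2 (5.56%) and 213 lower (2.47%). Cyclic loess normalization over all genes called 212, 137 higher and 75 lower. With 1 array left out and no treatment term, 2347 genes were called without control 1 and 2231 without plumbagin 1, where the close pair control 2 and plumbagin 2 was set against 1 array, and 0 were called without control 2 or without plumbagin 2. Below, "called" means an adjusted p under 0.05 from limma in the fit over genes above background, and differences are given as number 2 minus number 1 with the SE of the fit over all genes. Both arrays numbered 2 lay above both numbered 1 in 18.9% of all genes and below them in 30%. A difference of at least 0.5 in both treatments was found upward in 269 genes (1.57%) and downward in 122 (0.714%). These shares are the background for the counts that follow. Of the 693 called genes, 26 had both arrays of 1 number below background, so they passed the filter only through the other number and their call gives no support. Where such a gene is named below this is said, and its step is given as a bound, with the dim number set at background or above.

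Txnip had the largest mean difference over both treatments of the 17097 genes, though between the controls alone H1f4, which was below background in number 2, differed by more (-3.06 against -2.76). The log2 values of Txnip were 8.42 on control 1 and 8.24 on plumbagin 1, and 5.66 on control 2 and 5.10 on plumbagin 2. Both arrays numbered 2 were far below both numbered 1, near the background level. Plumbagin 2 was below control 2 by 0.56 and plumbagin 1 below control 1 by 0.18. The difference was -2.95 ± 0.12 (SE, 2 arrays per number), or 7.71-fold, with an adjusted p of 1.87e-05 in the fit over genes above background and 0.167 over all genes. A second probe set gave 8.07 and 7.21 in number 1 and 5.49 and 5.31 in number 2.

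Other targets of the glucose-sensing factors were lower by less. Arrdc3, another arrestin-domain gene, had values of 7.25 and 7.19 in number 1 and 6.70 and 6.68 in number 2 (-0.53 ± 0.08, called). Klf10, a zinc-finger factor that is also an immediate early gene, had 5.81 and 5.35 in number 1, and 5.03 and 4.63, below background, in number 2. It was at least 1.44-fold lower there and passed the filter only through number 1. Arrdc4, the arrestin gene most like Txnip in its control by MondoA, was below background by its mean and on every array but control 1. It had 5.11, 4.88, 4.93 and 4.79 on control 1, control 2, plumbagin 1 and plumbagin 2, and its difference was -0.19 ± 0.08. The genes of the sensor itself differed little: Mlx by -0.14 ± 0.10 and Mlxip, which encodes MondoA, by 0.10 ± 0.10. Of 16 measured members of this list, 11 were lower (68.8%, against 59.6% of all genes) and 5 higher, with a median of -0.13. Called were 3, all lower (2.47% of genes above background): Txnip, Arrdc3 and, with the limit just given, Klf10.

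The promoter of Txnip is shown because it holds the kind of site through which MondoA and ChREBP act, a pair of E boxes. It is the 250 bases before the start, from RefSeq, GRCm38.p6, chr3:96557707-96557956, plus strand, with the paired E box and 2 CCAAT boxes in capitals:
Txnip: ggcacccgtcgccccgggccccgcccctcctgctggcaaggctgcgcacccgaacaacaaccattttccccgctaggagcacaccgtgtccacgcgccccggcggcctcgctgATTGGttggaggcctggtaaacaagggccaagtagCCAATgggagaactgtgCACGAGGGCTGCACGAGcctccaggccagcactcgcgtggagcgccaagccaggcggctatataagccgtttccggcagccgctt
The letters searched for were CACGNG, then any 5 bases, then CACGNG, on both strands, and the match begins 85 bases before the start. They were found in 16 of 32851 promoter windows of 300 bases (0.05%). Of the 15 genes of the list that had a window, Txnip was the only one with a match, so Arrdc3 and Arrdc4 lacked these letters in their windows. CCAAT, on either strand, was in 37.4% of all windows and overlapped the paired E box in no place here.

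**Figure D2:**
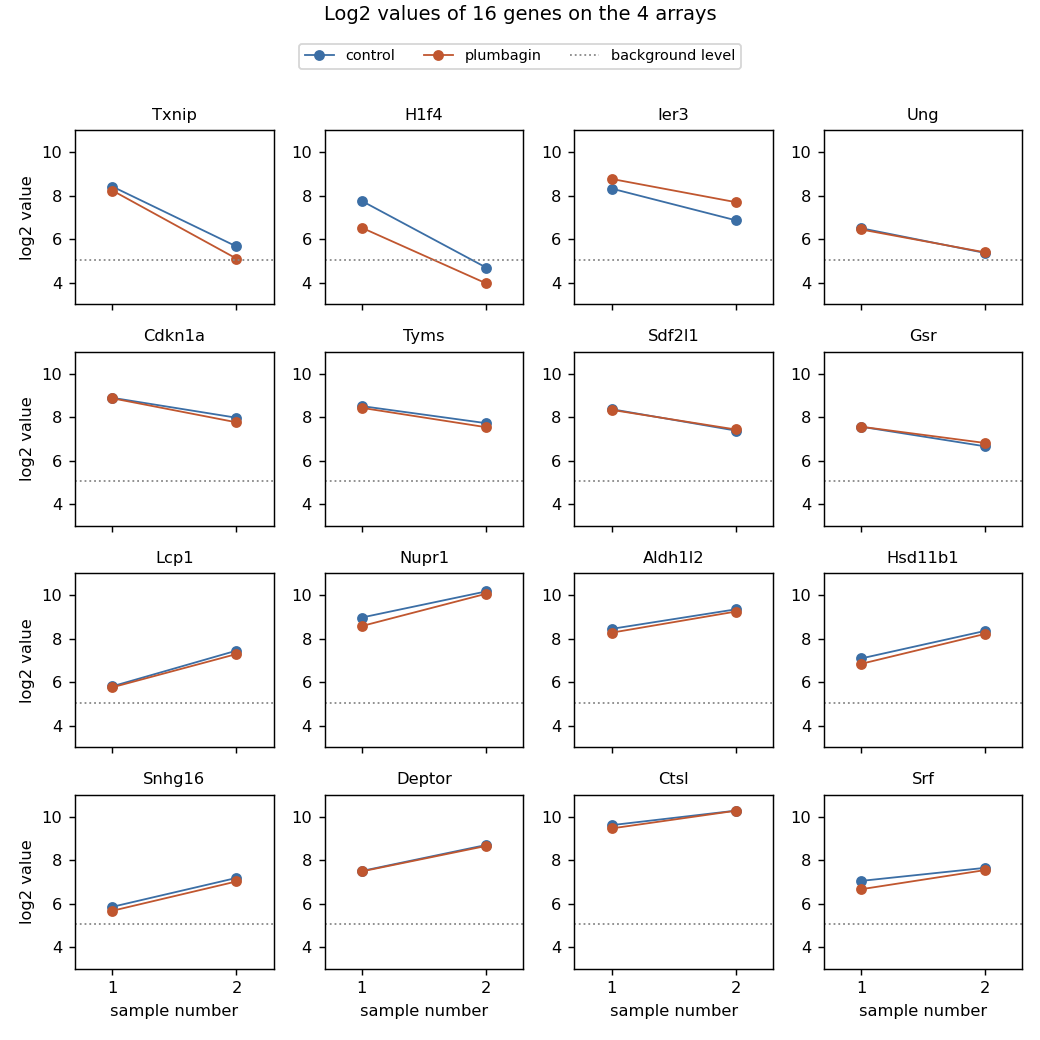
Log2 values (vertical) of 16 genes against the sample number (horizontal), with 1 line for each treatment and the background level of 5.05 dotted. In each panel both arrays numbered 2 lie on the same side of both numbered 1, and Txnip and H1f4 have the steepest lines.

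H1f4, which encodes a linker histone made mainly in S phase, was lower in number 2 by a like step. Its values were 7.75 on control 1 and 6.52 on plumbagin 1, and 4.69 on control 2 and 3.96 on plumbagin 2. Both arrays numbered 2 were below the background level, so the gene was at least 4.23-fold lower there. It passed the filter on dim genes only through number 1, and its call is not used as support. Its second probe set was dim on all 4 arrays, between 3.06 and 3.30.

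The other histone genes did not share the size of this step, though most replication-dependent ones were lower too. Of 17 measured replication-dependent histones, 14 were lower (82.4%, against 59.6% of all genes) and 3 higher, and the median was -0.12. All genes of brightness 4 to 5, where the list lies, had a median of -0.05, whose part was not tested. In 7 (41.2%) both arrays numbered 2 were below both numbered 1, against 30% of all genes. H1f4, with the limit just given, was the 1 member called, beside 2.47% of genes above background called lower. Only 8 of the 17 were above background, and Affymetrix cRNA labelling, as named in the labels, usually primes from poly(A), which most such transcripts lack. H1f2, another linker histone gene, had values of 8.16 and 7.70 in number 1 and 8.16 and 8.31 in number 2, and the numbers overlapped. H2bc4 had 7.75 and 7.48 against 7.29 and 7.33 (-0.31 ± 0.11). Among 21 replication-independent histones and histone chaperones the median was -0.10. Called there were Cenpa, the centromeric H3 (-0.60 ± 0.08), and Chaf1b, a subunit of the chromatin assembly factor that follows the replication fork (-0.70 ± 0.09). Slbp, which binds the end of histone messages, differed by -0.12 ± 0.09 at its brightest probe set. A second, much dimmer probe set gave 5.84 and 5.49 in number 1 and 4.91 and 5.135 in number 2 (-0.645).

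The H1f4 promoter is printed for the elements that mark H1 genes. It is the 250 bases before the start in RefSeq, GRCm38.p6, chr13:23622559-23622808, minus strand, with the H1 box and a CCAAT box in capitals:
H1f4: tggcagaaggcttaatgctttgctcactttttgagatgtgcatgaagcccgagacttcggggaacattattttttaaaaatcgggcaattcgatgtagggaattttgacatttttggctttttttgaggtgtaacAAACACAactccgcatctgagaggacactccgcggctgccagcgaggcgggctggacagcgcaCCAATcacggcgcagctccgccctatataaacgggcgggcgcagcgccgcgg
The H1 box, searched for as AAACACA on both strands, begins 115 bases and the CCAAT box 52 bases before the start. The H1 box letters were in 7.18% of all windows and in 2 of 13 windows of the replication-dependent histones, and CCAAT was in 10 of those 13.

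The G1/S and replication genes were lower in number 2 nearly throughout. Of 47 measured members, all above background, 46 were lower and 1 higher, with a median of -0.41 against -0.03 for all genes. Both arrays numbered 2 lay below both numbered 1 in 39 of the 47, against 30% of all genes, and 15 were called, all lower (2.47% of genes above background). The median was -0.45 between the controls and -0.34 between the plumbagin samples. The mean level of the list was 8.29 on control 1 and 8.11 on plumbagin 1, and 7.83 on control 2 and 7.75 on plumbagin 2, so numbers did not overlap.

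The members reach from cyclin to fork. Ccne1, the cyclin of the G1/S step, had values of 6.19 and 5.86 in number 1 and 5.31 and 5.15 in number 2 (-0.80 ± 0.09). Cdc6, which loads the replicative helicase onto origins, had 7.26 and 6.97 against 6.49 and 6.23 (-0.76 ± 0.08). The helicase subunits Mcm7, Mcm3, Mcm4 and Mcm6 differed by -0.65 ± 0.08, -0.59 ± 0.12, -0.53 ± 0.08 and -0.52 ± 0.08. In each of these genes both arrays numbered 2 were the lower pair, and all were called.

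Enzymes of nucleotide supply were lower as well. Tyms, thymidylate synthase, had 8.51 and 8.43 in number 1 and 7.72 and 7.54 in number 2 (-0.84 ± 0.08). Tk1, thymidine kinase, differed by -0.77 ± 0.09 and Rrm1, the large subunit of ribonucleotide reductase, by -0.51 ± 0.11, both called; Rrm2, its small subunit, differed by -0.46 ± 0.08 and was not (adjusted p = 0.0532). At the fork, Pole2, a subunit of DNA polymerase epsilon, differed by -0.82 ± 0.09, Lig1, the ligase of Okazaki fragments, by -0.67 ± 0.08, and Uhrf1, which brings the maintenance methyltransferase to new DNA, by -0.67 ± 0.09. The sliding clamp Pcna, among the brightest of the list, had 11.16 and 11.08 against 10.77 and 10.77 (-0.35 ± 0.08), apart but not called. Outside the list, Ung, which removes uracil from new DNA, had 6.50 and 6.44 against 5.36 and 5.39 (-1.10 ± 0.08), and Cad, which starts pyrimidine synthesis, had 8.57 and 8.27 against 7.61 and 7.49 (-0.87 ± 0.09). Both were called.

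**Figure D3:**
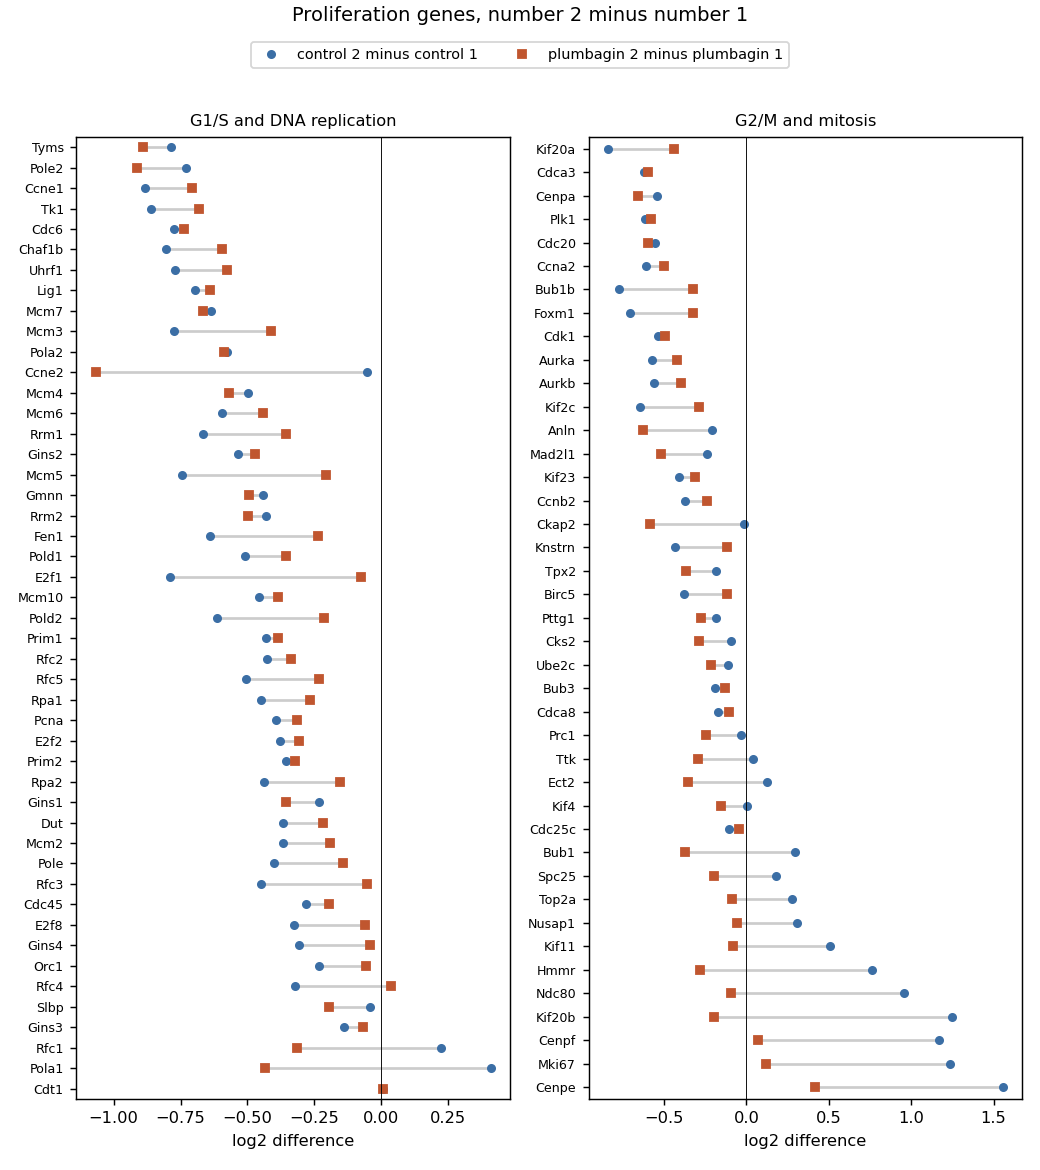
Log2 difference of number 2 from number 1 (horizontal) for each measured member of 2 lists (vertical), as circles for the controls and squares for the plumbagin samples. Of 47 G1/S genes 46 are lower on average, while the mitotic genes split at the bottom, where Mki67, Cenpf, Kif20b and Cenpe are above 1 between the controls and between -0.20 and 0.42 between the plumbagin samples.

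The Cdc6 promoter shows the E2F site of this group. It is the 250 bases before the start in RefSeq, GRCm38.p6, chr11:98907901-98908150, plus strand, with the E2F letters in capitals:
Cdc6: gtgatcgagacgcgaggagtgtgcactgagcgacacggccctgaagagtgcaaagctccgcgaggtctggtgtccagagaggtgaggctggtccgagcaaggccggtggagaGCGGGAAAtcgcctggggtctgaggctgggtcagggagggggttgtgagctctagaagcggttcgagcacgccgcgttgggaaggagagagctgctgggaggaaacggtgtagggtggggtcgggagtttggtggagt
The letters were TTTCCCGC, TTTCGCGC, TTTGCCGC or TTTGGCGC on either strand; here they lie on the reverse strand and begin 138 bases before the start. They were in 15 of 45 windows of the G1/S list (33.3%), in 1 of 38 of the mitotic list (2.63%) and in 744 of 32851 of all windows (2.26%). The 15 genes with the letters had a median difference of -0.47 and the 23 with a window and no match, among them Tyms and Ccne1, one of -0.41.

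Most mitotic genes were lower in number 2. Of 41 measured members 32 were lower and 9 higher, with a median of -0.23. In 26 both arrays numbered 2 were below both numbered 1, against 30% of all genes. Called were 9 lower and 1 higher, beside 2.47% and 5.56% of genes above background. Plk1, the polo kinase, had values of 8.31 and 8.04 in number 1 and 7.69 and 7.46 in number 2 (-0.60 ± 0.08). Cdc20, an activator of the anaphase-promoting complex, differed by -0.58 ± 0.08, Ccna2 by -0.56 ± 0.08, Cdk1 by -0.52 ± 0.08 and Aurka by -0.50 ± 0.09. The 1 called higher was Cenpe, a kinetochore motor, with 5.92 on control 1, 6.90 on plumbagin 1, 7.48 on control 2 and 7.32 on plumbagin 2. Mki67, the proliferation antigen, had 8.46 on control 1 and 9.59 to 9.71 on the other 3 arrays, and Cenpf 6.93 on control 1, with a difference of 1.17 between the controls and of 0.07 between the plumbagin samples. In Mki67 and Cenpf control 1 was low and the other 3 arrays lay close together, so the difference of Mki67 (0.68 ± 0.30) is one of a single array. In Cenpe plumbagin 1 was below both arrays numbered 2 as well. These 3 were the members with both arrays numbered 2 above both numbered 1.

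Inhibitors of the cell cycle did not mirror this. Cdkn1a, the p21 inhibitor and a p53 target, had 8.89 and 8.87 in number 1 and 7.97 and 7.76 in number 2 (-1.01 ± 0.09, called), lower in number 2 with the replication genes; a second probe set gave 8.52 and 8.53 against 7.59 and 7.29. Ccng2, a cyclin found in resting cells, had 7.87 and 8.14 against 7.17 and 7.16 (-0.84 ± 0.11, called). Cdkn1b, the p27 inhibitor, differed by 0.09 ± 0.08 and overlapped. Of 30 members of this list 19 were lower and 11 higher, with a median of -0.07. Other p53 targets did not follow Cdkn1a: Gadd45a, a growth-arrest gene, had 8.51 and 7.54 in number 1 and 9.09 and 8.67 in number 2 (0.85 ± 0.16, called), Aen, a nuclease, differed by 0.57 ± 0.12 (called), and Mdm2 by -0.01 ± 0.08. The 27 p53 targets had a median of -0.02.

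Genes of the MYC growth programme had no direction that held without plumbagin 1. Of 36 ribosome biogenesis and MYC genes 23 were higher and 13 lower, and the median was 0.10. It was 0.00 between the controls, with 18 higher and 18 lower, and 0.17 between the plumbagin samples, and -0.08 without plumbagin 1. All genes of brightness 7 to 8, where this list lies, had medians of -0.05 and 0.12 in the same pairs, whose part in the result was not tested. Myc itself had 8.69 and 8.21 in number 1 and 8.88 and 8.72 in number 2 (0.35 ± 0.11, not called). Nop58, a core protein of box C/D nucleolar particles, differed by 0.75 ± 0.15 and was called. Called lower were Cad, Noc2l (-0.57 ± 0.08) and Odc1, which starts polyamine synthesis (-0.48 ± 0.08).

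Targets of ATF4 were mostly higher in number 2. Of 39 measured members 29 were higher and 10 lower, and the median was 0.14. Both arrays numbered 2 lay above both numbered 1 in 19, against 18.9% of all genes, and 7 were called, all higher (5.56% of genes above background). The median was 0.11 between the controls and 0.23 between the plumbagin samples, and it was 0.06 without plumbagin 1 and 0.26 without control 1. Mean levels of the list were 8.79 and 8.45 in number 1 and 8.92 and 8.83 in number 2; plumbagin 1 was the low array, and control 1 lay close below the arrays numbered 2. All genes of brightness 9 to 10, where the list lies, had medians of -0.04 between the controls and 0.05 between the plumbagin samples.

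Nupr1, a small stress-induced chromatin protein, had values of 8.97 and 8.58 in number 1 and 10.17 and 10.06 in number 2 (1.34 ± 0.10, adjusted p = 0.00149). Ppp1r15a, which lets translation resume by directing dephosphorylation of eIF2α, had 8.39 and 6.83 against 9.27 and 8.95 (1.50 ± 0.33). Its difference was 0.88 between the controls and 2.12 between the plumbagin samples, since plumbagin 1 was the lowest array by far. Aldh1l2, a mitochondrial folate enzyme, had 8.45 and 8.27 against 9.35 and 9.24 (0.94 ± 0.08), nearly the same step in both treatments.

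The transcription factors of the response were higher by less. Ddit3, which encodes CHOP, had 10.53 and 10.09 in number 1 and 10.99 and 10.91 in number 2 (0.64 ± 0.12, called). Atf3 differed by 0.74 ± 0.14 and Cebpg by 0.50 ± 0.08, both called, and Cth, of the transsulfuration route to cysteine, by 0.86 ± 0.17 (called). Trib3, a feedback inhibitor, and Chac1, which degrades glutathione, differed by 0.32 ± 0.12 and 0.30 ± 0.10, apart but not called. Asns, which makes asparagine, differed by 0.11 ± 0.09 with overlapping numbers, and Psat1, of serine synthesis, had 10.16 and 9.97 against 9.73 and 9.68 (-0.36 ± 0.08), in the other direction.

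The Nupr1 promoter is shown for its composite element of C/EBP and ATF factors. It is the 250 bases before the start in RefSeq, GRCm38.p6, chr7:126625471-126625720, minus strand, with the match in capitals:
Nupr1: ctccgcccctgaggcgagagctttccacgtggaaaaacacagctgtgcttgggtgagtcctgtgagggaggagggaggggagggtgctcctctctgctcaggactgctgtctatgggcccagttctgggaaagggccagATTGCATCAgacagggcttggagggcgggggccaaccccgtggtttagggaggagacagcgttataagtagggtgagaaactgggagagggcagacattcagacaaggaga
The letters searched for were TGATGNAAN on both strands, and the match, on the reverse strand, begins 111 bases before the start. They were in 12 of 36 windows of the ATF4 list (33.3%) and in 1299 of 32851 of all windows (3.95%). The 12 genes with the letters had a median difference of 0.14 and the 20 without them, among them Ddit3 and Ppp1r15a, one of 0.11.

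**Figure D4:**
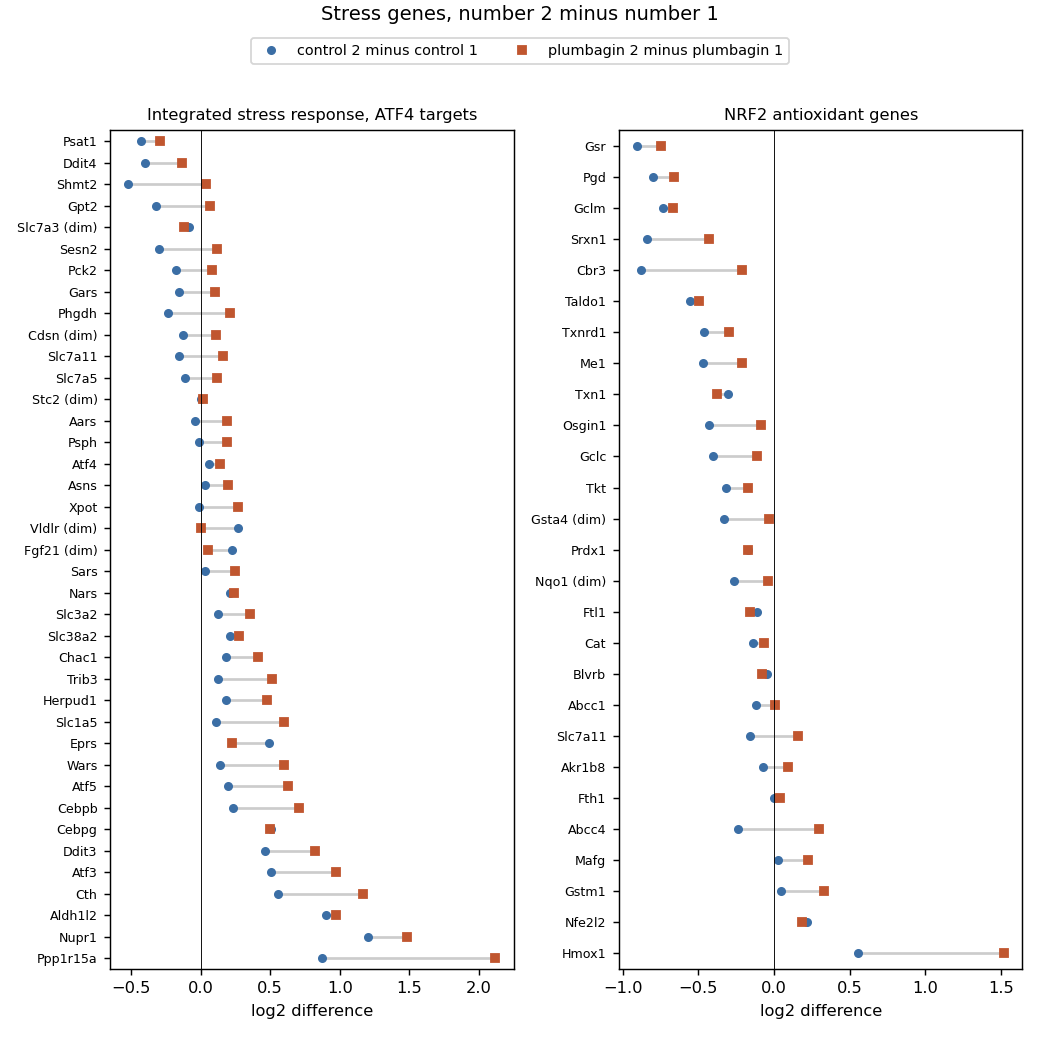
Log2 difference of number 2 from number 1 (horizontal) for each member of the ATF4 and NRF2 lists (vertical), as circles for the controls and squares for the plumbagin samples; dim marks a mean below background. Of 39 ATF4 targets 29 are higher on average, and of 27 NRF2 genes 19 are lower, with Hmox1 alone at the bottom right.

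NRF2 antioxidant genes were lower in number 2 in 19 of 27 members, with a median of -0.17. Both arrays numbered 2 were below both numbered 1 in 16, against 30% of all genes. There were 5 called lower and 1 higher, beside 2.47% and 5.56% of genes above background. Gsr, glutathione reductase, had 7.56 and 7.56 in number 1 and 6.66 and 6.81 in number 2 (-0.83 ± 0.09). Pgd, of the pentose phosphate pathway, had 8.95 and 9.09 against 8.15 and 8.42 (-0.73 ± 0.08), and Gclm, the modifier subunit of the enzyme that starts glutathione synthesis, 7.45 and 7.56 against 6.72 and 6.89 (-0.70 ± 0.08). In all 3 both arrays numbered 2 were low and plumbagin 2 was slightly above control 2. Srxn1, sulfiredoxin, differed by -0.64 ± 0.13 and Taldo1, transaldolase, by -0.53 ± 0.08 (both called), and Txnrd1, thioredoxin reductase, by -0.38 ± 0.09 (not called). Hmox1, heme oxygenase, went the other way: its values were 6.73 and 6.66 in number 1, 7.28 on control 2 and 8.18 on plumbagin 2 (1.04 ± 0.26, called), so plumbagin 2 was the high array. The median of the list was -0.26 between the controls and -0.09 between the plumbagin samples.

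Chaperones were mixed. Of 20 heat shock genes 16 were lower (80%, against 59.6% of all genes), with a median of -0.14. In 12 (60%) both arrays numbered 2 were below both numbered 1, against 30% of all genes. Called were 1 higher and 1 lower, beside 5.56% and 2.47% of genes above background. Hspa1b, the inducible HSP70, was the one called higher, with 5.04 and 5.28 in number 1 and 5.98 and 6.26 in number 2 (0.96 ± 0.08), and Cryab, a small heat shock protein, the one called lower (-0.54 ± 0.08), with a second, dimmer probe set at 0.25. Of the 79 further probe sets above background of the genes whose difference is given, 75 had the same sign. Steps under 0.3 at a further probe set of a called gene were found, besides Cryab and Mapre2, in Ak4 (-0.10), Cebpg (0.30), Ern1 (0.14), Fscn1 (-0.25), Mlec (-0.25 and -0.27), Noc2l (-0.11), Pus3 (0.02) and Srf (0.26). Hsp90aa1 had 10.61 on control 1, 11.22 on plumbagin 1 and 10.83 and 10.86 in number 2, so its direction differed between the treatments. In the endoplasmic reticulum, Sdf2l1, a partner of the chaperone BiP, had 8.37 and 8.34 against 7.38 and 7.43 (-0.94 ± 0.08), and Calr, calreticulin, 10.89 and 10.93 against 10.20 and 10.17 (-0.73 ± 0.08). Hspa5, which encodes BiP, was on the other side of 0 (0.31 ± 0.10, not called), as was the stress sensor Ern1, with 8.34 and 7.90 against 8.85 and 8.71 (0.66 ± 0.11, called). The 26 genes of that list split evenly, 13 higher and 13 lower, with a median of 0.00.

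Genes of energy supply differed little beside Txnip. The 23 glycolysis genes had a median of 0.05. Of them 9 were apart upward (39.1%) and 6 downward (26.1%), against 18.9% and 30% of all genes. Ldha had 11.83 and 11.83 in number 1 and 11.82 and 11.82 in number 2, and the glucose transporter gene Slc2a1 had 8.66 and 9.26 against 8.89 and 8.81, with plumbagin 1 as the high array. Among 30 hypoxia genes the median was -0.01. Ak4, an adenylate kinase (-0.78 ± 0.11), and Selenbp1 (-0.61 ± 0.13) were called lower and P4ha2, a collagen prolyl hydroxylase, higher (0.53 ± 0.09). Ankrd37 was at least 1.65-fold lower in number 2, where both values (5.02 and 4.67) were below background, and passed the filter only through number 1, while Vegfa differed by 0.07 ± 0.08. Of 18 cholesterol synthesis genes 14 were lower (77.8%, against 59.6% of all genes), with a median of -0.14. Lss, lanosterol synthase, was called higher (0.77 ± 0.19), with 5.38 and 5.05 in number 1 and 5.82 and 6.15 in number 2.

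Immediate early genes had no shared direction: 12 of 28 were higher and 16 lower, and the median was -0.06. Ier3 had 8.32 and 8.77 in number 1 and 6.87 and 7.70 in number 2 (-1.26 ± 0.13), with both arrays numbered 2 low and control 2 the lowest. Dusp4, a MAP kinase phosphatase, had 9.06 and 8.54 against 9.65 and 9.60 (0.83 ± 0.14, called). Jun was called lower (-0.52 ± 0.10), though its values overlapped between numbers. Egr1 had 5.04 and 4.72, below background, in number 1 and 5.53 and 5.24 in number 2, at least 1.25-fold higher, and passed the filter only through number 2.

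**Figure D5:**
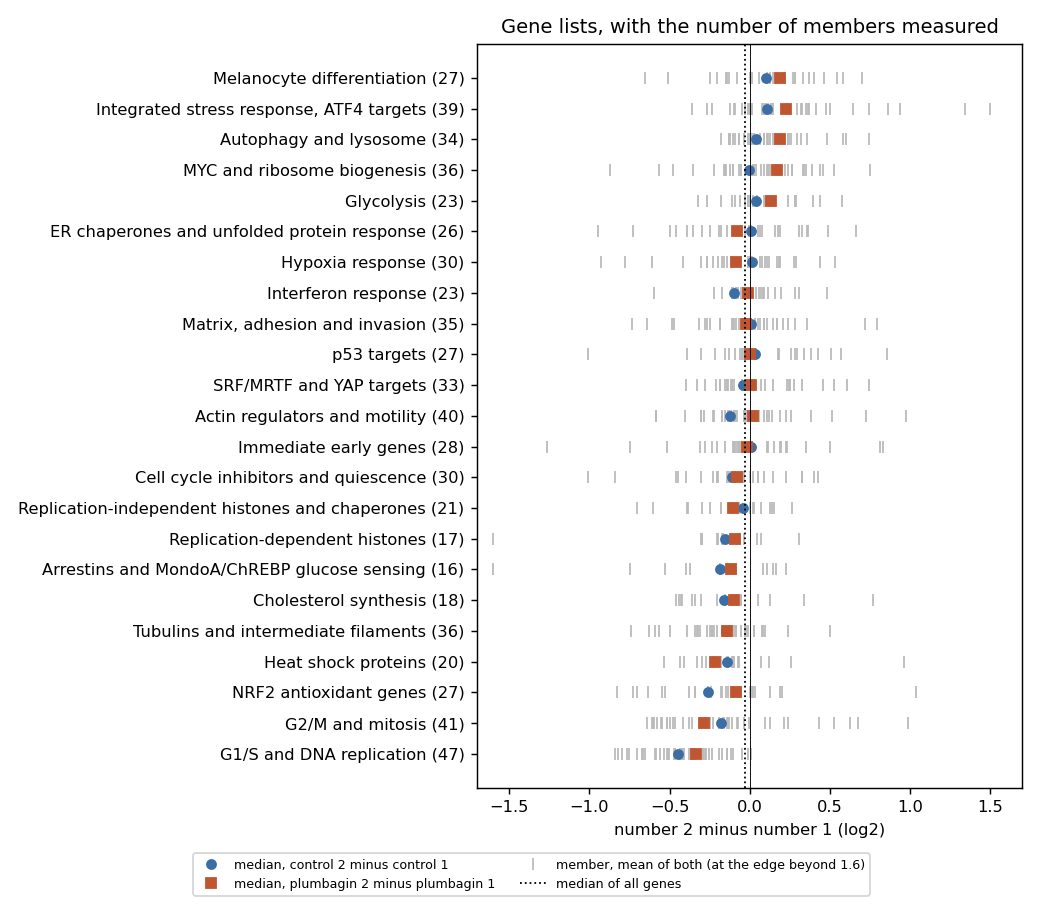
Median log2 difference of number 2 from number 1 (horizontal) for 23 gene lists (vertical), as circles for the controls and squares for the plumbagin samples, with members as grey ticks and the median of all genes, -0.03, dotted. G1/S genes lie lowest, at -0.45 and -0.34, and melanocyte and ATF4 genes highest.

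Lysosomal and pigment genes were mostly higher in number 2. Of 34 autophagy and lysosome genes 23 were higher, with a median of 0.11 and 17 apart upward, against 18.9% of all genes. Called were 3, all higher, where 5.56% of genes above background were called higher and 2.47% lower. The median was 0.04 between the controls and 0.19 between the plumbagin samples, and 0.02 without plumbagin 1, beside -0.03 and 0.10 for all genes of brightness 8 to 9 in the same pairs. Ctsl, the protease cathepsin L, had 9.61 and 9.46 in number 1 and 10.28 and 10.27 in number 2 (0.74 ± 0.08), and Atp6v1h, a subunit of the proton pump, 8.52 and 8.33 against 8.99 and 9.05 (0.60 ± 0.10). Mitf, the melanocyte master regulator, which also belongs to the family of lysosomal factors, had 10.70 and 10.64 against 11.18 and 11.32 (0.58 ± 0.09, called). Of 27 melanocyte genes 19 were higher and 8 lower, and the median was 0.14 (0.10 between the controls and 0.19 between the plumbagin samples). Oca2, a melanosome transporter, was called higher (0.70 ± 0.11), as was Rab27a, which moves melanosomes along actin (0.54 ± 0.12). Mlana, an abundant melanosome antigen, had 11.69 and 11.56 against 11.09 and 11.15 and was called lower (-0.51 ± 0.09). Cited1, another member of the list, was also called lower (-0.65 ± 0.10). Among the enzyme genes, Dct differed by 0.10 ± 0.08 and Tyrp1 by 0.06 ± 0.08. Tyr differed by 0.21 ± 0.09 at its brightest probe set and by 0.69 at both of its other 2 probe sets, all above background. The 3 were apart upward and not called.

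Targets of SRF and YAP did not differ as a group. Of 33 measured members 14 were higher and 19 lower, and the median was -0.02. Called were 2, both higher (5.56% of genes above background). Srf itself had 7.04 and 6.66 in number 1 and 7.65 and 7.54 in number 2 (0.74 ± 0.10), and Cnn2, a calponin, 8.68 and 8.71 against 9.31 and 9.29 (0.60 ± 0.08). The YAP target Ccn1 differed by -0.28 ± 0.11, and Ccn2 and Ankrd1 were dim on every array. Of 40 actin regulators 25 were lower (62.5%, near the 59.6% of all genes), with a median of -0.06. It was -0.12 between the controls, 0.02 between the plumbagin samples and 0.01 without control 1. There were 3 called higher and 2 lower, beside 5.56% and 2.47% of genes above background. Enah, an actin elongation factor, had 10.27 and 10.33 against 11.04 and 11.01 (0.72 ± 0.08), and Lima1 differed by 0.51 ± 0.08, both called. Iqgap1, a scaffold of the cell cortex, and Fscn1, the bundling protein fascin, were called lower (-0.58 ± 0.09 and -0.58 ± 0.11).

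Tubulins were lower more evenly. Of 36 tubulins, microtubule partners and intermediate filament genes 29 were lower and 7 higher, with a median of -0.14 in all and of -0.15 and -0.14 in the controls and the plumbagin samples. Both arrays numbered 2 lay below both numbered 1 in 22 of them, against 30% of all genes, and 5 were called, all lower (2.47% of genes above background). Tuba1a had 11.54 and 11.71 in number 1 and 11.15 and 11.11 in number 2 (-0.50 ± 0.09). Tubb3 had 7.80 and 8.04 against 7.27 and 7.40 (-0.59 ± 0.08). Tubb2a differed by -0.57 ± 0.08, Mapre2, a protein of growing microtubule ends, by -0.74 ± 0.08 (0.22 at a dimmer probe set), and Dpysl2, which binds tubulin, by -0.63 ± 0.08. Vim, vimentin, was apart downward without a call (12.04 and 12.09 against 11.79 and 11.80). In the matrix and adhesion list, which had a median of -0.01 over 35 genes, Fn1, fibronectin, had 7.34 and 7.22 against 6.56 and 6.53 (-0.73 ± 0.08, called), Mcam differed by -0.64 ± 0.17 (called), Timp3, an inhibitor of matrix proteases, by 0.72 ± 0.08 and the integrin gene Itga4 by 0.80 ± 0.14 (both called).

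The 15 named genes with the smallest p among those higher in number 2, unnamed loci such as Rik clones left out, were of many kinds, and their differences within a treatment lay between 0.96 (Pus3) and 1.64 (Lcp1). Lcp1, the actin bundler L-plastin of blood cells and many tumours, had 5.81 and 5.76 in number 1 and 7.45 and 7.29 in number 2 (1.59 ± 0.08, adjusted p = 0.000832). Snhg16 and Snhg5, noncoding hosts of small nucleolar RNAs, differed by 1.34 ± 0.08 and 1.25 ± 0.08. Hsd11b1, which turns inactive glucocorticoid into the active form, had 7.09 and 6.84 against 8.36 and 8.22 (1.33 ± 0.08). Dbt, the core subunit of the branched-chain ketoacid dehydrogenase, was higher by 1.24 between the controls and by 1.20 between the plumbagin samples (1.22 ± 0.08). Deptor, an inhibitor of mTOR, had 7.50 and 7.48 against 8.70 and 8.65 (1.18 ± 0.08). All 15 were picked for having both arrays numbered 2 above both numbered 1, so their lack of overlap is not a result. The other 9 of the 15 were Mtm1, Fam13b, Dgkh, Micu3, Phyhd1, Ncam1, Adgb, Pus3 and Nupr1, with differences from 1.00 for Pus3 to 1.44 for Phyhd1. Micu3 was below background in number 1 (4.81 and 4.83 against 5.89 and 5.88), passed the filter only through number 2, and was at least 1.78-fold higher there. Dgkh had 5.055 and 4.968 in number 1, with a mean of 5.012, just below background, and 6.16 and 6.07 in number 2. It too passed the filter only through number 2.

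Among those lower, besides Txnip, H1f4, Ung, Sdf2l1, Cdkn1a, Tyms, Ier3, Cdc6 and Cad, the 15 with the smallest p held Phtf1 (-1.04 ± 0.09), Tpgs2, of the tubulin polyglutamylase (-0.96 ± 0.08), Fam83d, a spindle protein (-0.83 ± 0.08), Cst6, a cystatin (-0.82 ± 0.08), Mlec, an ER lectin (-0.80 ± 0.08), and Noct, a clock-controlled phosphatase (-0.78 ± 0.08). Noct had 7.26 and 7.16 in number 1 and 6.48 and 6.38 in number 2. Among genes above background only Txnip, H1f4, Ier3 and Ung were lower by at least 1 in both treatments.

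Large upward steps that were small in the other treatment lay more often between the controls. Among genes above background, 138 were higher on control 2 than on control 1 by at least 1, and 74 of them differed by less than 0.5 between the plumbagin samples. Most of the 74 still had both arrays numbered 2 above both numbered 1, in some by little. Cenpf had 6.933 on control 1 and 7.995 on plumbagin 1, beside 8.105 and 8.068 in number 2, so control 1 alone was low. In Smc2 and Kif20b the numbers overlapped. The margin was wider in Zfp97, with 5.32 on control 1 and 6.83 on plumbagin 1 against 7.51 and 7.20 in number 2. Downward steps of at least 1 were few, 12 between the controls and 11 between the plumbagin samples. Of the 82 genes higher on plumbagin 2 than on plumbagin 1 by at least 1, 19 differed by less than 0.5 between the controls. The genes given here were chosen after their values were seen. The 74 held 19 zinc-finger genes named Zfp, among them Zfp97, with 2.19 between the controls and 0.38 between the plumbagin samples. They also held the cohesin and condensin subunits Smc3 (1.13 and 0.32), Smc2 (1.07 and -0.04) and Smc4 (1.46 and 0.36), Rif1, a replication timing factor (1.40 and 0.29), and the mitotic genes Cenpe, Cenpf, Kif20b and Mki67. The 19 held Zfp146 (0.38 and 2.32) and Eno2, an enolase (0.13 and 1.02), both low on plumbagin 1. Their values there, 4.398 and 5.046, were below background.

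The cells kept a melanocyte profile on every array. All 8 melanocyte markers were above background, with a list mean between 11.31 and 11.52 on the 4 arrays. Of the markers of other cells, 0 of 8 fibroblast, 0 of 8 keratinocyte, 1 of 8 macrophage (Cd14), 1 of 5 T cell (Cd3e) and 2 of 8 endothelial markers (Eng and Kdr) were above background; Ptprc, Pecam1, Col1a1 and Krt14 were between 3.19 and 3.75 on all arrays. Interferon response genes had a median of -0.01 over 23 genes, with Irf1 called lower (-0.60 ± 0.12). The gap between 3′ and 5′ probe sets of beta actin, a sign of RNA integrity, was 0.47 and 0.56 in number 1 and 0.50 and 0.53 in number 2, and that of Gapdh was between -0.03 and 0.01. Plumbagin 1 had a higher mean of the hybridization spike-ins, 9.58 against 8.46 to 8.77 on the others, and a lower upper quartile, 6.26 against 6.34 to 6.36. The part of these differences in the results, and that of the shifts with brightness given beside the ATF4, MYC and lysosome lists, was not tested.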

How the data were processed

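The authors deposited a log2 value for each probe set of 4 Affymetrix mouse 3′ arrays. The submitters' processing notes name RMA, run in Affymetrix software (Expression Console, Transcriptome Analysis Console); their versions are not given in the sources used here. Since RMA aligns the arrays' distributions, it takes out a shift common to most genes and shrinks differences of dim ones. Probe sets were named through the platform annotation, with symbols updated to RefSeq (28898 of 45141 had 1 symbol, 15588 were unnamed and left out), and the brightest of a gene's probe sets was used. Number 2 minus number 1 was fitted with treatment as a covariate (lmFit and eBayes, limma 3.58.1, R 4.3.3, two-sided, Benjamini-Hochberg over all genes tested, threshold 0.05), which left 1 residual degree of freedom and 3.81 in all with the prior. Precision was limited by 4 arrays. The code was tested on simulated data. The members and lists were chosen with earlier results of these data known. Genes named were the 15 with the smallest p in each direction, with numbers apart and a mean above background, unnamed loci (Gm, Rik, LOC and clone names) skipped, marked members of the lists, and up to 4 members of each list by p. Outside that rule, chosen after their values were seen, are Mcm3, Mcm4, Mcm7, Tk1, Rrm1, Lig1, Cenpe, Cenpf, Kif20b, Ccna2, Aurka, Nop58, Ppp1r15a, Atf3, Cth, Selenbp1, Dusp4, Rab27a, Mcam, Eno2, Smc2, Smc3, Smc4, Rif1, Zfp97 and Zfp146. One called actin regulator is not reported here. Alternatives were averaged probe sets, single probe sets, 2 ways to drop dim genes, a second quantile normalization, cyclic loess, median centring, a trend or robust prior, no treatment term, the replicate block and leaving out each array.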

Additional observations from a re-analysis of the deposited data

Results flagged for a closer look

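Hsp90aa1 and Slc2a1 had opposite signs in the treatments at the probe sets used. Hsp90aa1 was higher on control 2 than on control 1 by 0.22 and differed by -0.36 between plumbagin 2 and plumbagin 1. Slc2a1 was higher by 0.23 between the controls and differed by -0.45 between the plumbagin samples. A second Slc2a1 probe set above background did not share this. It had 8.01 on control 1 and 7.93 on control 2, and 8.15 on plumbagin 1 and 7.91 on plumbagin 2, lower in number 2 in both treatments. Among the genes whose difference the report gives, Hsp90aa1 and Slc2a1 were the ones with both differences at least 0.2 in size and of opposite sign at the probe set used. The difference between the treatments was not tested, since each rests on 1 array per treatment and number.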

How the results depend on the processing

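The count of genes called between numbers, 0 of all genes, was 693 with dim genes filtered by their mean, 768 with dim genes filtered on all 4 arrays, 212 after cyclic loess and 2 with an eBayes trend; it was 0 under the other settings that kept all arrays and between 0 and 2347 with 1 array left out. The labels do not tie samples of 1 number together, so the replicate block is given once: plumbagin against control called 0 genes with the replicate block and 0 without it (169 with an unadjusted p under 0.05 in limma). The median of ATF4 targets was 0.23 with either filter on dim genes. That of replication-dependent histones was -0.23 with the filter by the mean, -0.17 with the filter on all 4 arrays, -0.064 with every probe set on its own and -0.069 with arrays centred, where arrestins had -0.077 and SRF and YAP targets 0.030, on the other side of 0 from -0.02. With 1 array left out the medians lay between -0.49 and -0.31 for G1/S genes, -0.24 and -0.18 for mitotic genes, 0.060 (without plumbagin 1) and 0.26 (without control 1) for ATF4 targets, -0.15 and -0.10 for arrestins, -0.17 and -0.078 for replication-dependent histones and -0.05 and 0.01 for SRF and YAP targets. The median of the MYC list was -0.079 without plumbagin 1, that of lysosome genes 0.019 without plumbagin 1, and that of actin regulators 0.0069 without control 1. Signs of differences near 0 turned: Mdm2 to 0.031 with probe sets averaged, 0.069 with each probe set on its own, 0.043 with arrays centred, 0.080 without control 1 and 0.0049 without plumbagin 2 (-0.094 without plumbagin 1), Ldha to 0.017 with repeated quantile normalization and 0.041 with arrays centred, Vegfa to -0.0059 with repeated quantile normalization and -0.0057 without control 2 (0.14 without plumbagin 2), and, without plumbagin 1, Cdkn1b to -0.012, Hsp90aa1 to 0.24 and Slc2a1 to 0.19 (-0.37 and -0.41 without control 1). The other 1922 of 1934 values of the 139 genes whose difference the report gives kept their direction. Many could not have turned, so this count is no measure of stability. The filters on dim genes, the trend or robust prior and the missing treatment term leave a difference as it is. A gene with its numbers apart also keeps its sign with any 1 array left out. The 8460 genes not above background had values that RMA compresses, and a low step in them cannot be read as absence.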

Other observations

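Groups chosen after their values were seen are given here as descriptions. Of 22 measured genes of branched-chain amino acid catabolism, Dbt and Klf15 counted among them, 18 were higher in number 2 and 4 lower, and the median was 0.20. The controls alone had 13 upward and 9 downward (median 0.09), and the plumbagin samples 20 upward and 2 downward (median 0.32). In 12 both arrays numbered 2 were above both numbered 1, against 18.9% of all genes. Called were 5, all higher (5.56% of genes above background): Dbt, Klf15, Abat, Aldh6a1 and Ppm1k. Besides Dbt, Abat had 5.52 and 5.24 in number 1 and 6.40 and 6.47 in number 2, Aldh6a1, of valine breakdown, had 7.38 and 7.60 against 8.22 and 8.25, and Ppm1k, the phosphatase that activates the ketoacid dehydrogenase, had 6.17 and 6.54 against 6.83 and 7.06. Bckdk, the kinase that inactivates it, was on the other side and not called, with 8.11 and 7.94 against 7.55 and 7.54. Klf15, a transcription factor known to drive this pathway and itself glucocorticoid-responsive, had 7.15 and 6.66 against 8.01 and 8.01. Glucocorticoid-responsive genes as a group did not share this, with 9 of 16 higher and a median of 0.01: Klf9 was higher on both arrays numbered 2 (7.10 and 7.32 against 8.19 and 8.04), while Fkbp5 was lower (8.97 and 8.74 against 8.63 and 8.48).

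Among clock genes, Dbp (6.74 and 6.48 against 7.34 and 7.46) and Nr1d2 (8.16 and 8.54 against 8.88 and 8.98) were higher in number 2 and Noct lower, with 10 of 18 higher and 8 lower. In the mTOR pathway Deptor and Rictor (8.68 and 8.88 against 9.26 and 9.34) were higher and Eif4ebp2 lower (8.88 and 8.83 against 8.32 and 8.37), with a median of 0.04 over 19 genes. Of 16 noncoding RNA genes 11 were higher, with Snhg16, Snhg5, Zfas1 (7.31 and 7.02 against 8.13 and 8.15) and Pvt1 (6.29 and 6.28 against 6.90 and 7.01) apart upward, while Gas5 had 5.05 and 5.29 against 4.43 and 5.22. Of 175 Zfp genes above background 119 were higher and 54 lower, with medians of 0.13 between the controls and 0.16 between the plumbagin samples, against -0.05 and 0.06 for all genes above background.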
